A study of Mus musculus and Homo sapiens
Mus musculus with 12 samples.

Results

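Transmitter identity genes are the synthesis enzymes and vesicle transporters by which neurons are sorted into glutamate, GABA, glycine, monoamine and acetylcholine classes. A list of 10 such genes was taken as given (Slc17a7, Slc17a6, Slc17a8, Slc32a1, Gad1, Gad2, Slc6a5, Slc18a2, Th and Slc18a3), and its members were found by their symbols among the 34496 gene symbols of 7 mouse brain count tables. Of the 10 members, 9 had a row, and no row of the 7 tables carried the symbol Slc18a3. The libraries came from snHH-seq, a droplet method in which nuclei are fixed and their total RNA is reverse transcribed with random primers, and each captured fragment is counted once as a unique fragment identifier (UFI). The study's methods give wild-type male C57BL/6J mice of 6 to 8 weeks, with no agent given, and the labels name brain without a region. Nuclei were isolated from fresh or from frozen brain, and the reverse transcription primer either carried a first cell barcode (preindexed) or did not. This gave 2 frozen libraries without preindex, 2 frozen preindexed libraries, 2 fresh libraries without preindex and 1 fresh preindexed library. The sample titles were used for the primer. The treatment field of the labels names the opposite primer for 4 of the 7 libraries, and barcode length followed the titles, at 40 bases with preindex (3 libraries) and 30 bases without (4 libraries).

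The tables held 11198 nuclei, with 700 to 3100 nuclei and 8605214 to 42439731 UFIs per library. Median depth ran from 9011.5 to 27543 UFIs per nucleus and was highest in the 2 fresh libraries without preindex. Of all barcodes, 32 occurred in more than 1 library. The 10 neuronal marker genes took 174 to 189 of every 10000 UFIs in each of the 7 libraries, as the label brain implies. Some nuclei went against that label: 481 nuclei with kidney markers were found in the 2 frozen preindexed libraries alone, where 7 kidney marker genes took 8.39 and 8.97 of 10000 UFIs against 0.112 to 0.191 in the other 5 libraries. A further 19 nuclei led by Prlr came from the fresh preindexed library alone, where 6 liver marker genes took 0.333 of 10000 UFIs against 0.00813 to 0.0127 elsewhere. The 262 nuclei with cerebellar granule cell markers numbered 80, 93, 42 and 46 in the 4 libraries without preindex, and 1 in the 3 preindexed libraries. Fold changes, shares of positive nuclei by primer and class shares are also given without the kidney- and liver-marked nuclei, and fold changes in neuron-like nuclei without the cerebellar granule-like ones.

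Vesicular glutamate transporters load glutamate into synaptic vesicles, and a neuron that carries any of them can release glutamate. GABA is made from glutamate by the decarboxylases GAD67 and GAD65, encoded by Gad1 and Gad2, and is packed by the vesicular inhibitory amino acid transporter VGAT, encoded by Slc32a1, which also packs glycine. In the adult forebrain the transporters VGLUT1 and VGLUT2 are known for a largely complementary pattern, with VGLUT1 in cortex and hippocampus and VGLUT2 in thalamus and deeper nuclei.

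The members lie at separate loci of the mouse genome GRCm38 (GENCODE annotation). Slc17a7 (VGLUT1; ENSMUSG00000070570.5) spans chr7:45163949-45176142, Slc17a6 (VGLUT2; ENSMUSG00000030500.6) spans chr7:51622006-51671119, and Slc17a8 (VGLUT3; ENSMUSG00000019935.16) spans chr10:89574020-89621253 on the minus strand. Slc32a1 (ENSMUSG00000037771.11) is at chr2:158610767-158615748, Gad1 (ENSMUSG00000070880.10) at chr2:70553072-70602014 and Gad2 (ENSMUSG00000026787.3) at chr2:22622205-22693874. Slc6a5, the neuronal glycine transporter GlyT2 (ENSMUSG00000039728.15), is at chr7:49910146-49963856, and Slc18a2, the vesicular monoamine transporter VMAT2 (ENSMUSG00000025094.8), is at chr19:59260896-59296012. Th, tyrosine hydroxylase of catecholamine synthesis (ENSMUSG00000000214.11), is at chr7:142892752-142931128 on the minus strand. Slc18a3, the vesicular acetylcholine transporter, is a gene of 1 exon at chr14:32462438-32464850 that lies wholly within Chat on the same strand. Chat, choline acetyltransferase (ENSMUSG00000021919.8; chr14:32408203-32465989), was therefore followed beside the members as the gene of the cholinergic class that has a row. Reads were assigned to whole genes, so introns counted: the exons of Gad2 cover 5876 bases of a span of 71.67 kb, whereas those of Slc32a1 cover 2797 bases of 4.982 kb. Antisense genes overlap 3 members, namely Gad1os over 21.02% of the span of Gad1, Gm14205 over 18.29% of Slc32a1 and Gm29261 over 1.492% of Slc18a2. The study describes its UFI quantification as strand-specific. The strand setting used to assign reads to genes is not given in the sources used here.

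The 250 bases before the RefSeq start sites of Slc17a7, Gad1, Gad2 and Slc32a1 are shown because these genes carry the division between glutamate and GABA nuclei described next. They are written from 5′ to 3′ on the strand of the gene (GRCm38.p6; chr7:45163671-45163920, chr2:70561879-70562128, chr2:22622077-22622326 and chr2:158610508-158610757, all on the plus strand), with capitals for motifs found on either strand. Those searched for were the TATA box (TATAAA), the CCAAT box, the GC box (GGGCGG), the E box (CACGTG) and the cAMP response element (TGACGTCA).
Slc17a7: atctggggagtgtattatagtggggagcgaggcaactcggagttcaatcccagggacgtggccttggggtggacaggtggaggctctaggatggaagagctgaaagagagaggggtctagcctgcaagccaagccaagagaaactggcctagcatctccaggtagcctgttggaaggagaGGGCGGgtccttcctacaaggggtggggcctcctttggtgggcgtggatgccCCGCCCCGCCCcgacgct
Gad1: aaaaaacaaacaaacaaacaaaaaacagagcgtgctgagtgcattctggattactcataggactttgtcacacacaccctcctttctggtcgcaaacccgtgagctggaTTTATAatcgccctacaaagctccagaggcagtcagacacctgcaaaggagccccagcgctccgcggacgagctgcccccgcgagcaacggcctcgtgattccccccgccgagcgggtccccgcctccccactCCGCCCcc
Gad2: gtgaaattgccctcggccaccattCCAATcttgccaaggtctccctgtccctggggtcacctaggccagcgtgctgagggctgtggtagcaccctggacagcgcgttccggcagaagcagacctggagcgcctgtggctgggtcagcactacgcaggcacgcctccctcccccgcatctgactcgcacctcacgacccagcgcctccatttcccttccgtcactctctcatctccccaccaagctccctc
Slc32a1: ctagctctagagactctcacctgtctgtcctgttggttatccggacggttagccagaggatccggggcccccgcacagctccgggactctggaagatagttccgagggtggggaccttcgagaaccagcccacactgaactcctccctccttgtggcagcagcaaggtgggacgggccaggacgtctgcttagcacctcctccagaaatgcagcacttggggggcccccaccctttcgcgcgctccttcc
The Slc17a7 window held the GC box 3 times, at -70 and, on the other strand and overlapping each other, at -18 and -13 from the start site. The Gad1 window held the TATA box at -141 and the GC box at -8, both on the other strand, the Gad2 window held the CCAAT box at -226, and the Slc32a1 window held none of the 5 motifs. Among 32851 mouse promoter windows of the same length, 32.7% held the GC box, 12.4% the TATA box, 33.8% the CCAAT box, 6.02% the E box and 1.55% the cAMP response element. The windows were rich in G and C, at 61.2% in Slc17a7, 58.0% in Gad1, 64.0% in Gad2 and 62.4% in Slc32a1 against a median of 52.4% over all windows. No motif of the 5 was found in more than 1 of the 3 GABA genes, and a match or its absence says only which letters stand in these windows.

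Glutamate and GABA genes were detected in most nuclei and the other members in few. A nucleus was called positive for a gene with at least 1 UFI of it. Slc17a7 was positive in 5353 of 11198 nuclei, or 47.8% (95% Clopper-Pearson interval 46.9 to 48.7%), Slc17a6 in 1970 nuclei, or 17.6% (16.9 to 18.3%), and Slc17a8 in 195 nuclei, or 1.74% (1.51 to 2.00%). Gad1 was positive in 3724 nuclei, or 33.3% (32.4 to 34.1%), Gad2 in 3807 nuclei, or 34.0% (33.1 to 34.9%), and Slc32a1 in 1780 nuclei, or 15.9% (15.2 to 16.6%). Gad1 and Gad2 thus stood next to each other in the order with intervals that overlapped, and Slc32a1, the transporter of the same class, was found in fewer nuclei than either. Slc18a2 was positive in 161 nuclei (1.44%; 1.23 to 1.68%), Th in 109 (0.973%; 0.800 to 1.17%) and Slc6a5 in 105 (0.938%; 0.768 to 1.13%). Chat was positive in 106 nuclei (0.947%; 0.776 to 1.14%), so that the shares of Th, Chat and Slc6a5 could not be told apart. These intervals cover counting error only. Most positive nuclei of the abundant genes held more than 1 UFI: with a minimum of 2 UFIs the shares were 33.0% for Slc17a7, 23.3% for Gad1, 24.4% for Gad2 and 10.7% for Slc17a6, but 6.93% for Slc32a1.

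Shares of positive nuclei differed between libraries. Slc17a7 was positive in 55.3% and 53.3% of nuclei in the frozen libraries without preindex and in 63.7% and 68.3% in the fresh ones, against 35.9% and 41.4% in the frozen preindexed libraries and 44.0% in the fresh preindexed one. The 3 preindexed libraries all lay below the 4 others. Slc17a6 was divided in the same way, with 21.1%, 24.4%, 26.9% and 32.5% without preindex against 9.09%, 13% and 15.1% with it. So was Slc32a1, with 16.0%, 24.5%, 25.9% and 28.6% against 11.7%, 14.1% and 9.35%. Gad1 and Gad2 overlapped between the primers: Gad1 ran from 31.3 to 45.5% without preindex and from 28.4 to 33.4% with it, and Gad2 from 31.0 to 45.3% and from 28.4 to 34.3%. The libraries also differed in depth, so each nucleus was also thinned at random to 3000 UFIs, which left out 3 nuclei.

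At equal depth Gad1 and Gad2 overlapped between the primers, and Slc17a7, Slc17a6 and Slc32a1 did not. Gad1 was then positive in 16.1 to 18.9% of nuclei without preindex and in 15.8 to 17.4% with it, and Gad2 in 17 to 20.5% and 17.3 to 18.6%. Slc17a7 was positive in 28.9%, 26%, 29.2% and 31.6% without preindex against 15.3%, 16.8% and 20.8% with it, Slc17a6 in 10.3 to 11.3% against 3.78 to 8.07%, and Slc32a1 in 6.80 to 7.63% against 3.13 to 3.74%. None of these 3 pairs of ranges overlapped, and none did without the kidney- and liver-marked nuclei, an alternative added after the data were seen, where the preindexed libraries held Slc17a7 in 17.3 to 20.9%, Slc17a6 in 4.28 to 8.12% and Slc32a1 in 3.15 to 4.23%. The difference between the primers without those nuclei was 0.963 points for Gad1 and 0.287 points for Gad2, against -0.430 and -1.25 points with them, and the ranges overlapped in both cases. Of the rarer members, Slc18a2 was positive in 0.50 to 0.625% without preindex against 0.226 to 0.348%, on 4 to 8 positive nuclei per library. The ranges of Slc17a8, Slc6a5 and Th overlapped. Without the kidney- and liver-marked nuclei those of Th did not, at 0.20 to 0.385% against 0.148 to 0.195%. How many of all genes were divided in this way between the primers, before or after thinning, was not counted.

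**Figure D1:**
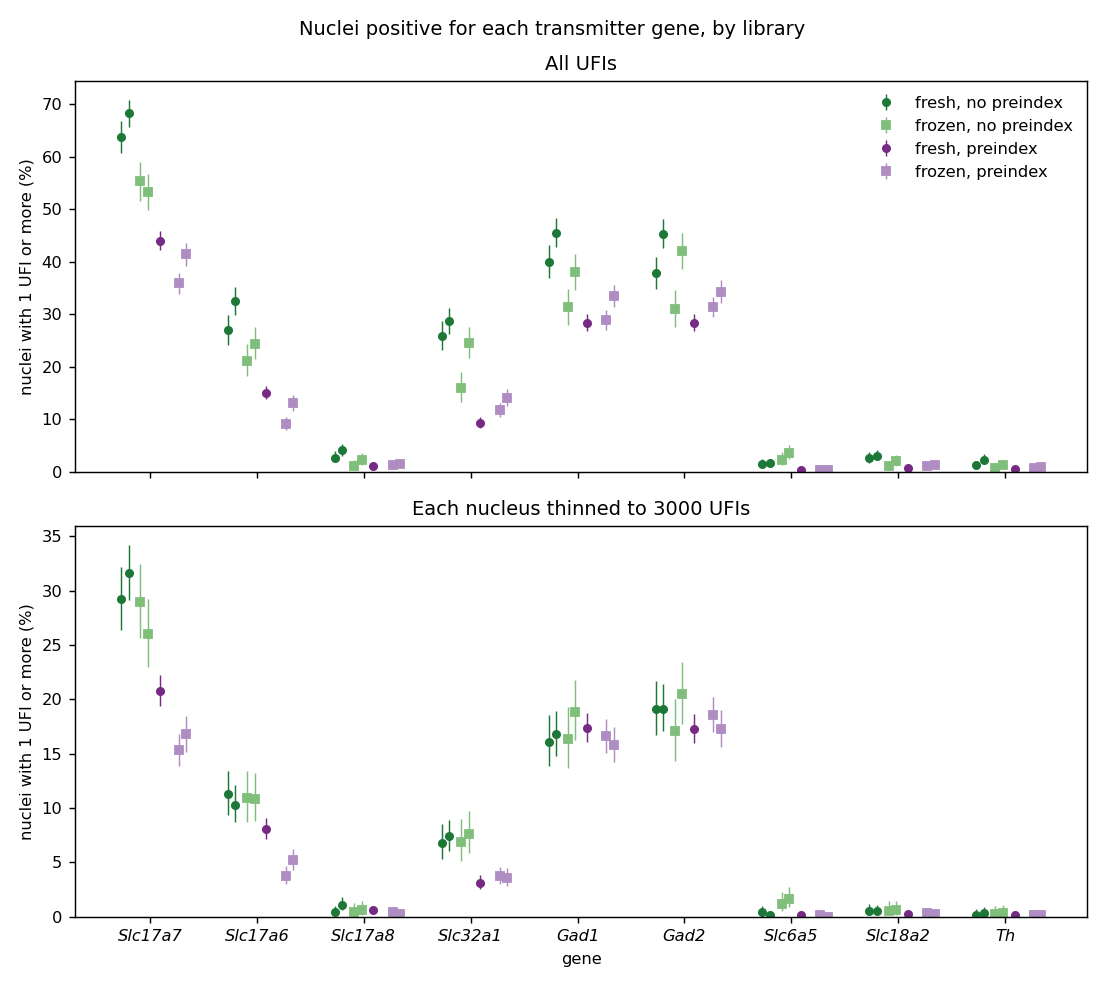
Share of nuclei (%) with at least 1 UFI of each gene in the 7 libraries, with 95% Clopper-Pearson bars, before (top) and after (bottom) thinning each nucleus to 3000 UFIs. After thinning, Gad1 and Gad2 overlap between the primers while Slc17a7, Slc17a6 and Slc32a1 are lower in the 3 preindexed libraries.

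To see which nuclei carried the genes, nuclei were grouped by their other genes, with the 10 members left out of the clustering. This gave 29 clusters, of which 22 with 9863 nuclei were neuron-like, and each is described by its leading genes or, where marker lists allowed it, as resembling a known type. In 11 neuron-like clusters with 4643 nuclei, chosen because more than 50% of their nuclei were positive for Slc17a7, that gene was positive in 83% of nuclei, and the share per cluster ran from 72.7 to 88.1%. Dentate granule-like and cerebellar granule-like nuclei also passed 50%, at 82.4% and 74.0%, and are left out of these 11 clusters and described separately. In the nuclei of the 11 clusters Gad1 was positive in 5.69%, Gad2 in 7.09% and Slc32a1 in 1.70%. The highest share of Slc17a7 was 88.1% (85.1 to 90.7%) in a cluster led by Rspo2, Il1rapl2 and Gm28928. Thalamic-like nuclei, led by Synpo2, Lef1 and Rnf220, held Slc17a6 at its highest share, 94.3% (91.3 to 96.5%) of 349 nuclei, with Slc17a7 in 38.7% and Gad1 in 8.60%. The 4 libraries without preindex gave Slc17a6 in 93.3%, 100%, 100% and 98.4% of thalamic-like nuclei, and the 3 with it in 85.2%, 95.7% and 91.8%. Per 10000 UFIs, thalamic-like nuclei held 2.89 UFIs of Slc17a6 and 0.446 of Slc17a7, against 0.158 and 1.98 in the 11 clusters above. Those clusters were chosen by Slc17a7, so their level of it is a description only.

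The GABA genes were together in other clusters. Striatal medium spiny-like nuclei, in 1 cluster led by Drd1 and another led by Drd2, were positive for Gad1 in 76.9%, for Gad2 in 80.7% and for Slc32a1 in 34.9% of 1365 nuclei, with Slc17a7 in 10.3%. In forebrain interneuron-like nuclei, with a cluster led by Sst and a cluster led by Adarb2, the shares were 90.5% for Gad1, 89.5% for Gad2 and 49.2% for Slc32a1 among 920 nuclei, with Slc17a7 in 12.4%. Gad2 reached its highest share, 94.1% (90.8 to 96.5%), in the interneuron-like cluster led by Adarb2, Kit and Frem1. Gad1 was highest, at 97.6% (87.1 to 99.9%), in 41 nuclei led by Cpa6, Lgr5 and Gng4, where it took 7.66 of 10000 UFIs against 2.56 for Gad2. Of these 41 nuclei, 28 came from the fresh preindexed library and 0 from the frozen libraries without preindex. With the members among the clustered genes, the highest share of Gad1 was 94.8% of 289 nuclei. It was 98.2% of 111 nuclei at a resolution of 1.2 and 96.8% of 31 nuclei with 20 principal components. Slc32a1 was highest, at 73.5% (55.6 to 87.1%), in 34 Purkinje-like nuclei led by Gm38048, Car8 and Arhgef33, whose median depth of 26728.5 UFIs was the highest of all clusters. Purkinje cells are the GABA output neurons of the cerebellar cortex, and none of these 34 nuclei came from a preindexed library.

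**Figure D2:**
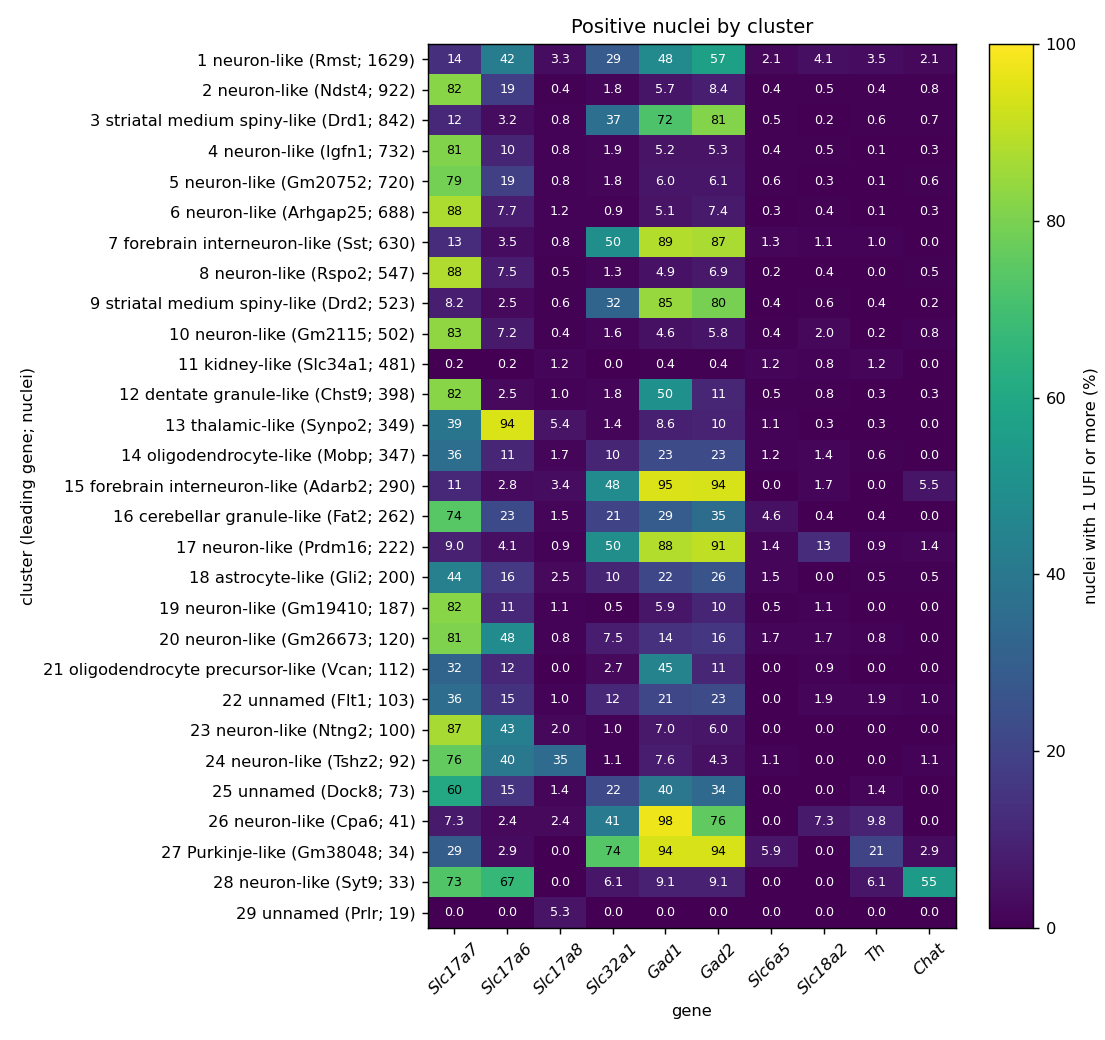
Share of nuclei (%, colour and number) with at least 1 UFI of each gene in the 29 clusters, which are named with their leading gene and number of nuclei. Slc17a7 and the GABA genes are high in separate clusters, Slc17a6 reaches 94% in thalamic-like nuclei, and dentate granule-like nuclei hold Slc17a7 with Gad1.

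Dentate granule-like nuclei departed from this division. Granule cells of the dentate gyrus are glutamatergic neurons that are known to make GAD67 as well. Of 398 such nuclei, 82.4% were positive for Slc17a7 and 50.3% (45.2 to 55.3%) for Gad1, but 10.6% (7.71 to 14.0%) for Gad2 and 1.76% (0.710 to 3.59%) for Slc32a1. Gad1 was positive in 59.1%, 53.3%, 62.7% and 71.7% of dentate granule-like nuclei in the libraries without preindex and in 37.0%, 46.9% and 42.5% in the preindexed ones. In the 11 Slc17a7-rich clusters the same libraries gave 8.86%, 9.13%, 11.1% and 17.5%, and 2.69%, 2.41% and 2.51%. Each dentate share lay above all 7 of these. The 11 clusters leave out the cerebellar granule-like nuclei, where the libraries without preindex gave Gad1 in 23.8%, 29.0%, 33.3% and 34.8%, below the dentate shares of those libraries. A glutamate transporter and a GABA gene were both positive in 46.2% of dentate and 30.2% of cerebellar granule-like nuclei. Per 10000 UFIs, dentate granule-like nuclei held 0.664 UFIs of Gad1 against 0.0593 in the Slc17a7-rich clusters, and 0.129 of Gad2 against 0.0627. The antisense gene Gad1os was positive in 10.6% of dentate granule-like nuclei, and the nucleus richest in Gad1 held 5.17% of their Gad1 UFIs. Oligodendrocyte precursor-like nuclei had a like pair of values, with Gad1 in 44.6% (35.2 to 54.3%) and Gad2 in 10.7% (5.66 to 18%) of 112 nuclei.

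The same genes were counted in nuclei of types that should lack most of them. In kidney-like nuclei, at a median of 8765 UFIs, Slc17a7 was positive in 0.208%, Gad1 in 0.416% and Gad2 in 0.416% of 481 nuclei, and Slc32a1 in 0 of 481, which allows a share of up to 0.624% (3 counts of the total). In oligodendrocyte-like nuclei, at a median of 12699 UFIs, Slc17a7 was positive in 36.3%, Slc17a6 in 10.7%, Gad1 in 22.8% and Gad2 in 22.8% of 347 nuclei. Astrocyte-like nuclei gave 43.5%, 16.5%, 21.5% and 26%. In both glial types Gad1 was above its share in the Slc17a7-rich clusters. Slc17a7 was above its shares in the medium spiny-like and interneuron-like nuclei. The neuronal marker list, all of whose 10 genes had a row, took 108 of 10000 UFIs in oligodendrocyte-like and 119 in astrocyte-like nuclei against 3.06 in kidney-like nuclei. The part that neuronal RNA outside nuclei or joined nuclei had in these shares was not tested. The Slc17a7 share of 10.3% in medium spiny-like nuclei lay below the shares in both glial types. No doublet caller was run. For the rare members the kidney-like shares were 1.25% for Slc17a8, 1.25% for Slc6a5, 1.25% for Th and 0.832% for Slc18a2.

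Glutamate and GABA genes were found together in fewer nuclei than their separate shares would give. For each library the number of nuclei positive for 2 genes was divided by the number given by the product of the 2 shares, so that 1 means no relation. Nuclei positive for at least 1 of the 3 glutamate transporters numbered 6417, those for at least 1 of the 3 GABA genes 4788, and 1627 were positive for both. The ratio was 0.58 ± 0.19 (SD, n = 7 libraries) and lay below 1 in 7 of 7, from 0.336 to 0.851. It was 0.272 when at least 1 gene of each class had to hold 2 UFIs or more, and 0.306 after thinning to 3000 UFIs. Thinning made depth equal and also lowered it. Ratios across libraries also follow which cell types a library holds, and their values are a description without a test.

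Pair by pair, the separation was found between VGLUT1 or VGLUT2 and each GABA gene. Ratios of pairs, here and below, are pooled: nuclei with both genes, summed over libraries, were divided by the summed products. The ratio of Slc17a7 was 0.39 with Slc32a1, 0.49 with Gad1 and 0.45 with Gad2, and that of Slc17a6 was 0.36, 0.41 and 0.51, each below 1 in 7 of 7 libraries. Slc17a8 differed from both: its ratio was 1.02 with Slc32a1, 1.04 with Gad1 and 1.14 with Gad2, above 1 in 5 of 7 libraries for each. Of its 195 positive nuclei, 52.3% were positive for a GABA gene against 24.6% of the Slc17a7-positive and 25.7% of the Slc17a6-positive nuclei. Of the 195, 76 held at least 2 UFIs of Slc17a8, and the part of stray single UFIs in its ratios was not tested. Slc17a7 with Slc17a6 was close to 1 at 0.95, and 49.8% of Slc17a6-positive nuclei were positive for Slc17a7.

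Within the GABA class the genes went together. Gad1 with Gad2 gave a ratio of 2.18, and 76.2% of Gad1-positive nuclei were positive for Gad2, while 74.5% of Gad2-positive nuclei were positive for Gad1. Slc32a1 gave 2.41 with Gad1 and 2.39 with Gad2, and 86.1% and 86.9% of its positive nuclei were positive for them. The converse shares were 41.2% and 40.6%, so that more than 50% of nuclei with either decarboxylase had no UFI of the transporter. Slc32a1 gave 3440 UFIs in all nuclei, against 16181 for Gad1 and 17770 for Gad2, and a low level and a missed transcript in a nucleus cannot be told apart.

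**Figure D3:**
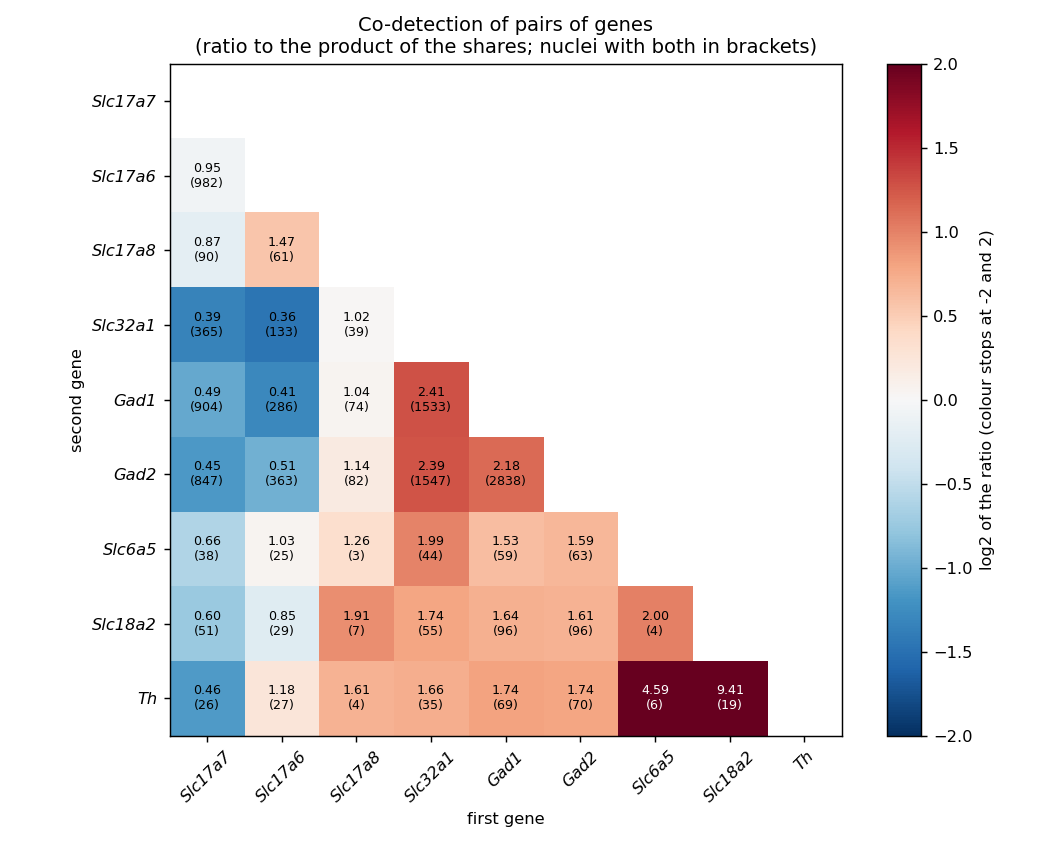
Ratio of nuclei positive for a pair of genes to the number given by the product of their shares within libraries, pooled over 7 libraries (colour on a log2 scale, nuclei positive for both in brackets). Pairs of Slc17a7 or Slc17a6 with a GABA gene lie between 0.36 and 0.51, pairs within the GABA genes between 2.18 and 2.41.

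The balance of the 2 classes was also described by counts within a nucleus. Among 4666 nuclei with at least 5 UFIs of the 6 glutamate and GABA genes, 35.4% had at most 10% of these UFIs from GABA genes, 46.6% had at least 90%, and 18% lay between. These shares are not those of all nuclei, since clusters passed the minimum unequally: 488 of 630 Sst-led and 412 of 842 Drd1-led nuclei, against 200 of 547 Rspo2-led ones. Over all nuclei, a glutamate transporter only was the more frequent, at a mean of 41.0% against 31.4% for GABA genes only with preindex. Without preindex the means were 45.5% and 23.1%. The median depth was 20419 UFIs in nuclei between and 17679 in the others, so the nuclei between were the deeper ones. In medium spiny-like and interneuron-like nuclei the range from 90 to 100% GABA UFIs held 89.1% of 1434 nuclei, and in the Slc17a7-rich clusters the range from 0 to 10% held 79.1% of 1315. The latter clusters were chosen by Slc17a7, which enters this balance, so their value is a description only. Of 140 dentate granule-like nuclei, 72.9% lay between, against 50% of 26 oligodendrocyte precursor-like nuclei, 40% of 10 nuclei of the Syt9-led cluster, 34.8% of 23 nuclei of the Flt1-led cluster and 28.2% of 142 cerebellar granule-like nuclei. The Drd1-led and Sst-led clusters gave 13.3% and 8.20%. By library the share between ran from 20.6 to 23.8% without preindex and from 12.1 to 13.3% with it, and the 2 ranges did not overlap.

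**Figure D4:**
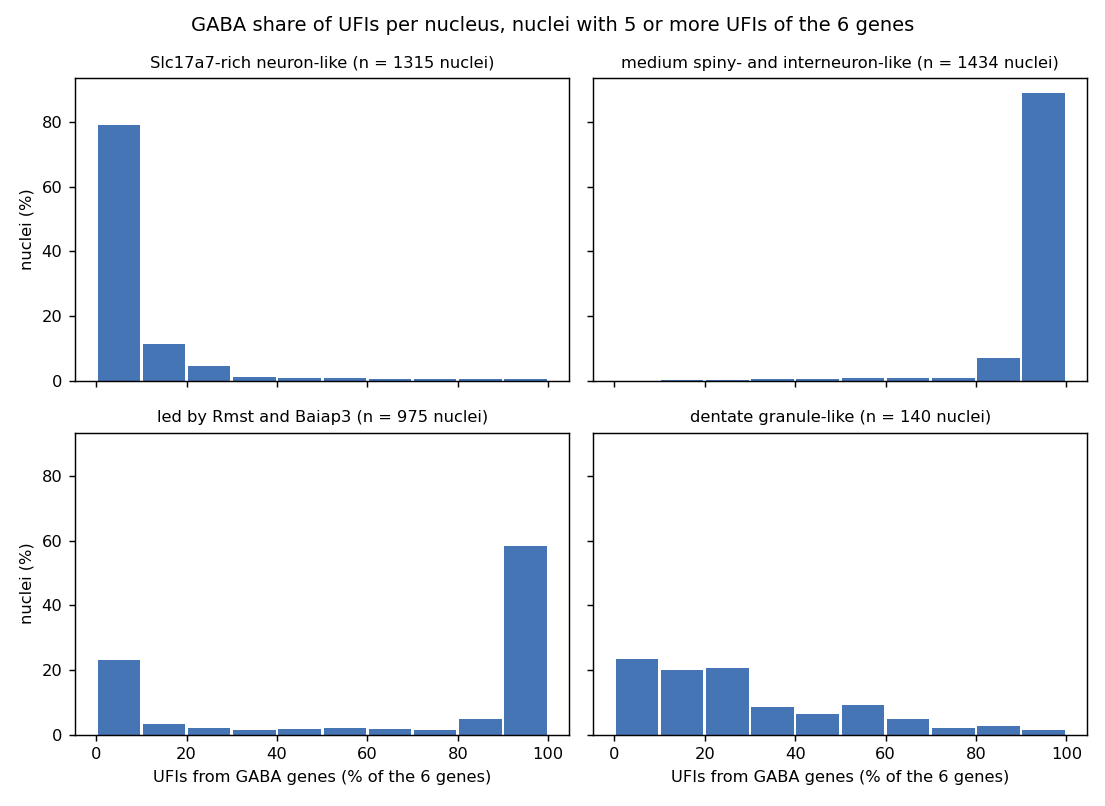
Share of nuclei (%) by the percentage of their glutamate and GABA UFIs that came from Gad1, Gad2 and Slc32a1, in 4 sets of nuclei with at least 5 such UFIs. The range from 0 to 10% holds 79.1% of nuclei of the Slc17a7-rich clusters, that from 90 to 100% holds 89.1% of medium spiny- and interneuron-like nuclei, and dentate granule-like nuclei are spread between.

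A cluster of 1629 nuclei led by Rmst, Baiap3 and Ebf3 held both classes. Of its nuclei, 42.1% were positive for Slc17a6, 56.8% for Gad2, 47.8% for Gad1, 28.6% for Slc32a1 and 13.6% for Slc17a7. Slc17a6 and the GABA genes were mostly in separate nuclei: a GABA gene was positive in 27.6% of the 685 Slc17a6-positive nuclei and in 89.5% of those without Slc17a6. Slc17a7 showed no such separation, with a GABA gene in 60.8% of its 222 positive nuclei and in 63.9% of those without it. Its share of 13.6% was near the 11.4% in the Adarb2-led interneuron-like nuclei, and 29 of the 222 held 5 UFIs or more of it. The part of stray UFIs of Slc17a7 in these values was not tested. In the balance of counts 23.3% of 975 nuclei had 0 to 10% GABA UFIs and 58.4% had 90 to 100%. The rare classes were found here too, with 57 of the 109 Th-positive, 66 of the 161 Slc18a2-positive, 54 of the 195 Slc17a8-positive and 35 of the 106 Chat-positive nuclei.

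VGLUT3, encoded by Slc17a8, is known from cholinergic, serotonergic and some GABA neurons. In the Rmst-led cluster 33.3% of its 54 Slc17a8-positive nuclei were positive for Chat, and 51.4% of the 35 Chat-positive nuclei were positive for Slc17a8. Of those 35 nuclei, 82.9% were positive for Gad2 and 17.1% for Slc32a1. In the Adarb2-led interneuron-like cluster 10 nuclei were positive for Slc17a8, all 10 of them for Gad1 and Gad2, and 6 held 5 UFIs or more. A GABA gene was positive in 98.9% of the nuclei of that cluster without Slc17a8 as well. By share Slc17a8 was highest, at 34.8% (25.1 to 45.4%), in 92 nuclei led by Tshz2, Vwc2l and Lypd1, where Slc17a7 was positive in 76.1%, Slc17a6 in 40.2%, Gad1 in 7.61% and Gad2 in 4.35%. Its positive nuclei thus lay in glutamate, GABA and cholinergic surroundings. The highest share rested on the clustering: at a resolution of 1.2 it was 31.1%, but when the members were clustered with the other genes the highest share was 5.41%, and with 20 principal components it was 5.49%, both in the cluster where Slc17a6 was highest.

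Acetylcholine and monoamine genes marked few nuclei each. A cluster of 33 nuclei led by Syt9, Ano1 and Nwd2 was positive for Chat in 54.5% (36.4 to 71.9%), for Slc17a7 in 72.7% and for Slc17a6 in 66.7%, with Gad2 in 9.09% and Slc17a8 in 0 of 33, which allows a share of up to 9.09% (3 counts of the total). Of its 18 Chat-positive nuclei, 83.3% were positive for Slc17a7 and 55.6% for Slc17a6, unlike the Chat-positive nuclei of the Rmst-led cluster, where the values were 14.3% and 17.1%. Slc18a2 was highest, at 12.6% (8.55 to 17.7%), in 222 nuclei led by Prdm16 and Ano2, where all 28 positive nuclei were positive for Gad2 and none for Th. These values were near those of the whole cluster: a GABA gene was positive in 95.4% of its nuclei without Slc18a2, and Th in 2 of all 222. This cluster held no nucleus of the frozen libraries without preindex, and with 20 principal components the highest share of Slc18a2 was 4.98%. Slc18a2 with Th gave a pooled ratio of 9.41 on 19 nuclei. In the Rmst-led cluster 40.9% of the 66 Slc18a2-positive nuclei were positive for Ddc, which makes dopamine and serotonin from their precursors, and 13.6% for Slc6a3, the dopamine transporter. Of the 15 nuclei there with 5 or more UFIs of Slc18a2, 11 were positive for Ddc, 7 for Th and 6 for Slc6a3. Th was highest, at 20.6% (8.70 to 37.9%), in the Purkinje-like nuclei, at 0.106 of 10000 UFIs and with 10 UFIs in all. Of the 5 nuclei with 5 or more UFIs of Th, 2 were kidney-like, and both were positive for Slc18a2 and for Dbh, the enzyme that makes noradrenaline.

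Slc6a5 is known as a marker of glycinergic neurons. Of its 105 positive nuclei, 68.6% were positive for a GABA gene and 41.9% for Slc32a1, which packs glycine as well, against 42.8% and 15.9% of all nuclei. The 4 libraries without preindex held 80 of the 105, and there the share with a GABA gene was 75% against 51.3% of all nuclei. In the 3 preindexed libraries it was 48% of 25 nuclei against 38.4%. No nucleus of these libraries held more than 2 UFIs of Slc6a5. In the 2 frozen ones 8 and 7 nuclei were positive, and 5 and 4 without the kidney- and liver-marked nuclei. Its highest share by cluster, 5.88% (0.720 to 19.7%), was in the Purkinje-like nuclei and rested on 2 nuclei. Slc6a5 reached 5 UFIs in 18 nuclei, of which 11 lay in the Rmst-led cluster and 5 in cerebellar granule-like nuclei. All 5 of the latter were positive for Gad1 and Gad2 and all 5 for Slc17a7, and cerebellar granule cells are glutamatergic. In cerebellar granule-like nuclei Gad1 was positive in 29.0%, Gad2 in 35.5%, Slc32a1 in 20.6% and Slc6a5 in 4.58%, beside Slc17a7 in 74.0%, and the part of joined nuclei or of RNA from cerebellar interneurons in these shares was not tested.

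Whether frozen storage changed the genes was asked with UFI counts summed per library, in edgeR's quasi-likelihood test with storage and primer as terms and Benjamini-Hochberg adjustment over all genes. The labels number the libraries of a group without saying that they came from separate animals, so p-values measure the spread between libraries, which may be technical. In whole libraries, fewer nuclei of a type and less RNA per nucleus cannot be told apart. Between frozen and fresh libraries, 0 of 9 members were called in edgeR at an adjusted p of 0.05, against 0.207% of 19299 genes. An unadjusted p below 0.05 was found for 3 of 9 members, against 2901 of the 19299 genes. In DESeq2 1 member, Slc17a7, was called, against 1.65% of genes. In CPM (counts scaled to the library total, with TMM factors), Slc17a7 stood at 129, 107, 75.9 and 76.5 in the frozen libraries and at 142, 147 and 106 in the fresh ones, with a log2 fold change of -0.35 ± 0.07 (SE; edgeR adjusted p = 0.115). The groups overlapped, as 2 frozen libraries lay above the lowest fresh one. Gad1 differed by 0.0037 ± 0.09 and Gad2 by 0.11 ± 0.08 on the log2 scale. The largest difference was that of Slc6a5, 1.49 ± 0.41 (edgeR adjusted p = 0.174), with 4.61 and 8.46 CPM in the frozen libraries without preindex and 1.83 and 1.87 in the fresh ones, and the frozen pair also held more cerebellar granule-like nuclei.

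Slc17a7, Slc17a6, Slc32a1 and Slc6a5 were lower with preindexed primers. Of 9 members, 4 fell in the edgeR test and 0 rose, against 15.8% of 19299 genes called and 7.88% called as lower. Slc17a7, at 129, 107, 142 and 147 CPM without preindex against 75.9, 76.5 and 106 with it, had a log2 fold change of -0.58 ± 0.07 (edgeR adjusted p = 0.00389). Its groups touched without overlapping. Slc17a6 stood at 49.3, 47.5, 54.4 and 50.5 CPM without preindex against 20.5, 22.1 and 38.6 with it, a log2 fold change of -0.90 ± 0.14 (edgeR adjusted p = 0.00835). Slc32a1 stood at 22.1, 24.0, 23.3 and 25.1 CPM against 13.9, 14.4 and 12.3, a log2 fold change of -0.85 ± 0.08 (edgeR adjusted p = 0.00167). Neither gene overlapped between the primers, and the 3 preindexed values of Slc32a1 lay closer together than those of Slc17a6. Slc6a5 stood at 4.61, 8.46, 1.83 and 1.87 CPM against 0.350, 0.227 and 0.338, a log2 fold change of -3.86 ± 0.45 (edgeR adjusted p = 0.00316). Its counts came from few nuclei. Of 105 positive nuclei, 32 held at least 2 UFIs, and the richest held 49, in the second fresh library without preindex. Its shares of positive nuclei did not overlap between the primers before thinning, at 1.4 to 3.625% without preindex against 0.323 to 0.350% with it. After thinning they overlapped, at 0.154 to 1.625% against 0 to 0.174%.

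Gad1 and Gad2 did not pass. Gad1 stood at 78.5, 102, 82.2 and 90.3 CPM without preindex and at 86.8, 88.0 and 96.8 with it, a log2 fold change of 0.0052 ± 0.09 (edgeR adjusted p = 0.981), and Gad2 at 88.2, 115, 96.7 and 94.2 against 103, 99.8 and 96.3, a log2 fold change of -0.03 ± 0.08 (edgeR adjusted p = 0.834). Both overlapped fully. Slc18a2 (-1.34 ± 0.40, edgeR adjusted p = 0.0581), Slc17a8 (-0.74 ± 0.34, edgeR adjusted p = 0.184) and Th (-0.30 ± 0.30, edgeR adjusted p = 0.547) did not pass either. The median log2 fold change was -0.74 over the 9 members and -0.02 over all genes tested.

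Without the kidney- and liver-marked nuclei 5 of 9 were called, all lower, against 19.6% of 18691 genes, Slc18a2 being the fifth (-1.29 ± 0.35, edgeR adjusted p = 0.0293). Neuron-like nuclei alone gave the same direction. Here 5 of 9 members fell with preindexed primers and 0 rose, against 20.9% of 18176 genes called and 9.74% called as lower. The log2 fold changes were -0.44 ± 0.06 for Slc17a7 (edgeR adjusted p = 0.00083), -0.74 ± 0.10 for Slc17a6 (edgeR adjusted p = 0.000719), -0.75 ± 0.10 for Slc32a1 (edgeR adjusted p = 0.000747), -4.07 ± 0.53 for Slc6a5 (edgeR adjusted p = 0.000573) and -1.26 ± 0.34 for Slc18a2 (edgeR adjusted p = 0.026). Without the cerebellar granule-like nuclei, an alternative added after the data were seen, the value of Slc6a5 was -3.87 ± 0.61 (edgeR adjusted p = 0.00229) and the same 5 members were called, against 18.5% of 17935 genes. The 34 Purkinje-like nuclei, of which 0 came from preindexed libraries, stayed in that fit. The call of Slc18a2 rested on single libraries: without the second frozen library without preindex its log2 fold change was -0.60 (edgeR adjusted p = 0.126), and without either frozen preindexed library the adjusted p was 0.0743 and 0.087. By storage 0 of 9 were called in neuron-like nuclei, against 0.545% of genes. There 3 of 9 had an unadjusted p below 0.05, against 2173 of 18176 genes. DESeq2 called 1, Slc17a7, against 1.03% of genes.

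**Figure D5:**
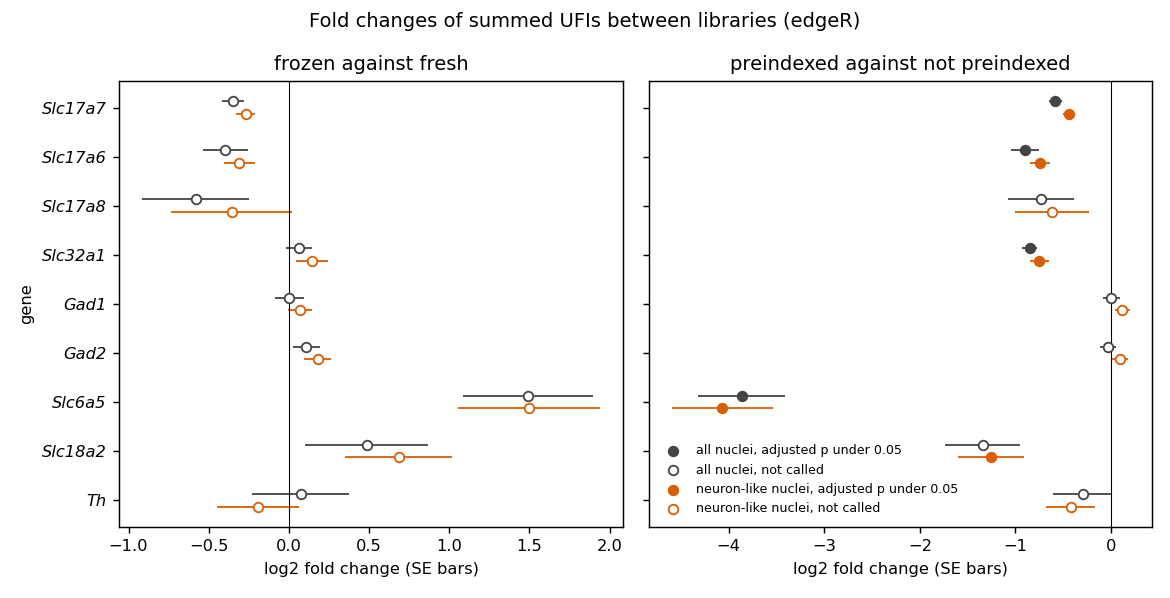
Log2 fold changes with SE bars of the 9 members between storages (left) and primers (right), from edgeR on UFIs summed per library, in all nuclei (grey) and neuron-like nuclei (orange); filled points passed an adjusted p of 0.05. By primer, Slc17a7, Slc17a6, Slc32a1 and Slc6a5 are below 0 and past the test in both sets, while Gad1 and Gad2 lie near 0.

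Slc32a1 was lower with preindexed primers within single cell classes as well. In medium spiny-like nuclei Slc32a1 took 0.494, 0.440, 0.544 and 0.555 of 10000 UFIs in the libraries without preindex and 0.298, 0.318 and 0.273 in the preindexed ones. The 3 preindexed values lay below the 4 others. For Gad1 in the same nuclei the values were 1.76, 1.68, 1.66 and 1.85 against 1.49, 1.66 and 1.81, and for Gad2 2.04, 2.44, 2.36 and 2.60 against 1.91, 1.99 and 2.19, and both overlapped. In interneuron-like nuclei Slc32a1 ranged from 0.697 to 1.03 against 0.416 to 0.464. There Gad2 did not overlap either, at 3.84 to 4.11 against 3.12 to 3.46, while Gad1 did, at 4.05 to 4.40 against 3.77 to 4.20. Slc17a7 was also lower, at 0.174 to 0.296 of 10000 UFIs in medium spiny-like nuclei without preindex against 0.0783 to 0.0985. The share of all genes divided between the primers within these classes was not counted. In all neuron-like nuclei 20.9% of genes were called by primer, and 9.74% as lower.

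The fall of Slc17a6 differed between storages, although in all nuclei interactions were called no more often among the members than among all genes. An interaction of storage and primer was called in edgeR for 1 of 9 members in all nuclei, against 16.4% of genes, and for 2 of 9 in neuron-like nuclei, against 7.05%. For Slc17a6 it was -0.73 ± 0.10 in all nuclei (edgeR adjusted p = 0.000191) and -0.54 ± 0.10 in neuron-like nuclei (edgeR adjusted p = 0.00446), the gap between primers being wider in frozen brain. For Slc32a1 in neuron-like nuclei it was 0.49 ± 0.13 (edgeR adjusted p = 0.0291), with 22.5 and 24.4 CPM against 16.1 and 17 in frozen brain and 23.5 and 26 against 12.3 in fresh brain. Fresh preindexed brain is 1 library, so these values rest on it.

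The classes were also compared as shares of nuclei, and which class differed most between the primers depended on the depth and the minimum of UFIs. A glutamate transporter and a GABA gene were both positive in 17.7%, 22.4%, 27.7% and 39.8% of nuclei without preindex against 6.65%, 8.46% and 6.68% with it, a difference of -19.6 percentage points. A 2-sided exact permutation test over the 35 splits of 7 libraries gave p = 0.0571 (0.171 adjusted over 6 tests), the smallest p this design allows, so it cannot pass 0.05. The gap was -12.5 points within frozen and -27.1 points within fresh brain. At 3000 UFIs it was -2.57 points, with 3.20 to 4.54% against 1.35 to 1.55%, and the groups still did not overlap. Nuclei with GABA genes only made up 19.0 to 27.5% without preindex and 30.1 to 32.8% with it (8.35 points; exact permutation p = 0.0571, adjusted 0.171), and at 3000 UFIs the difference was 0.57 points with groups that overlapped. Nuclei with a glutamate transporter only differed by -4.43 points (exact permutation p = 0.286, adjusted 0.343), from 39.7 to 49.1% without preindex and 35.7 to 47.4% with it, and its sign differed within frozen (-8.91 points) and fresh brain (3.24 points). At 3000 UFIs this difference was -13.1 points with groups that did not overlap. A minimum of 2 UFIs was also set, here on the sum over the genes of a class. The differences were then -20.4 points for glutamate only, 2.86 for GABA only and -7.50 for both (exact permutation p = 0.0571, 0.286 and 0.0571; adjusted 0.171, 0.343 and 0.171). Without the kidney- and liver-marked nuclei they were -1.32, 11.03 and -19.0 points (exact permutation p = 0.629, 0.0571 and 0.0571; adjusted 0.755, 0.171 and 0.171). Between frozen and fresh libraries the differences were -2.92 points for glutamate only, 5.40 points for GABA only and -10.9 points for both, with exact permutation p = 0.571, 0.229 and 0.286 (adjusted 0.571, 0.343 and 0.343). Within libraries without preindex the difference in both was -13.7 points and within preindexed ones 0.878 points.

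Companion genes of transmitter synthesis, uptake and breakdown were taken as a list of 23, all with a row. By primer 6 of 23 were called in edgeR, 5 lower and 1 higher, against 15.8% of all genes, with a median log2 fold change of -0.42. Those that fell were Glul, glutamine synthetase of astrocytes (-0.49 ± 0.08), the glutamine transporters Slc38a1 (-0.42 ± 0.05) and Slc38a2 (-0.53 ± 0.08), Ache, which breaks down acetylcholine (-0.53 ± 0.07), and Chat (-0.88 ± 0.24), with edgeR adjusted p of 0.00835, 0.00245, 0.00674, 0.0045 and 0.045. Slc18a1, the vesicular monoamine transporter of endocrine cells, rose by 2.84 ± 0.65 (edgeR adjusted p = 0.0262), with 23.5 and 23.0 CPM in the 2 frozen preindexed libraries that held kidney-like nuclei and 0.540 to 1.96 CPM in the other 5. In neuron-like nuclei it stood at 0.517 to 2.09 CPM in all 7. There 7 of 23 were called as lower, against 9.74% of genes. Tph2 and Slc6a4, the synthesis enzyme and transporter of serotonin, were lower by log2 fold changes of -1.41 ± 0.44 and -1.79 ± 0.53 (edgeR adjusted p = 0.0433 and 0.0375). Both overlapped between the primers there. Tph2 stood at 1.11 to 5.72 CPM without preindex against 1.05 to 1.24, and Slc6a4 at 0.369 to 2.19 against 0.192 to 0.454. Both were highest in the second frozen library without preindex, and neither was called in all nuclei. By storage 0 of 23 were called in edgeR in either set, against 0.207% of genes in all nuclei and 0.545% in neuron-like nuclei. In all nuclei 6 of 23 had an unadjusted p below 0.05, against 2901 of 19299 genes. In neuron-like nuclei 4 of 23 had one, against 2173 of 18176 genes. DESeq2 called 1, Ddc, in all nuclei and 0 in neuron-like nuclei, against 1.65% and 1.03% of genes. Like Slc18a1, Ddc was high in the 2 frozen preindexed libraries that held kidney-like nuclei, at 27.0 and 24.4 CPM against 4.07 to 10.4 in the other 5. Its log2 fold change by storage in edgeR was 1.08 ± 0.33 (adjusted p = 0.205) in all nuclei. Without the kidney- and liver-marked nuclei it was 0.49 ± 0.26 (edgeR adjusted p = 0.539).

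The genes most like each abundant member were sought over the 28 clusters of at least 30 nuclei by Pearson correlation of log2(UFIs per 10000 + 0.1) among 8051 genes with at least 10 CPM. For Slc17a7 these were Neurod2, Nrn1 and Ndrg3 (r = 0.88, 0.86 and 0.84), and for Slc17a6 Rmst, Rab23 and Lef1 (r = 0.72, 0.70 and 0.70). For Slc32a1 they were Gad2 (0.98), Gm14204 (0.95) and Gad1 (0.94), and Gad1 and Gad2 had the same partners, with 0.94 between them. Clusters share libraries and depth, so these values describe likeness of level and nothing else.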

How the data were processed

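Single-nucleus libraries of mouse brain were made by snHH-seq, and 7 count tables were used. Per the study's methods, the authors trimmed poly-A with Cutadapt and chose cell barcodes with UMI-tools and a manual read cutoff. Reads were aligned with STAR, unique reads were kept, and featureCounts assigned them to genes. Manual cutoffs on UFIs and genes per nucleus then removed nuclei of low quality and possible doublets. The deposited tables hold counts of UFIs per gene and nucleus. The study reports fewer brain cells than the 11198 nuclei of these tables, so whether the tables passed those cutoffs is not known. GRCm38 is named in the submitters' processing notes. The cutoffs and strand setting are not given in the sources used here, so no cell filter was added and no doublet caller was run.

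Groups came from the sample titles. Nuclei were clustered without the 10 members (scanpy 1.11.5; igraph 0.11.9; 2000 variable genes, 40 components, 10 neighbours, resolution 0.4). A cluster was named for a type when at least 3 markers, and at least 50% of its list, stood 2-fold or more above the mean of the other clusters. At least 1 of these had to be among its 10 leading genes. A tie between lists, or as many markers of other lists among the leading genes, left it without that name. UFIs were summed per library and tested in edgeR 4.0.16 (R 4.3.3; quasi-likelihood test, TMM, filterByExpr, storage and primer as terms, Benjamini-Hochberg at 0.05), which was tested on simulated data. DESeq2 1.42.0 and the alternatives of the closing section were also run. Shares used Clopper-Pearson intervals and exact permutation tests (scipy 1.17.1). Libraries held 8605214 to 42439731 UFIs, which limits the rare members most. The members and all gene lists were chosen with earlier results of these data known. Named genes were the members, the companion genes that passed the test, the leading genes of the clusters where a member was highest, and the 3 genes most alike. The clusters led by Rmst, Syt9 and Prlr, and the genes Gad1os, Ddc, Dbh and Slc6a3 within clusters, were singled out after their values were seen. Results for 1 companion gene and 1 leading gene are not reported here.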

Additional observations from a re-analysis of the deposited data

Results flagged for a closer look

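Slc18a2 stood at 6.45 CPM in the second frozen library without preindex, against 1.44 to 1.61 CPM in the other 3 frozen libraries. Its gap to the nearest library was 0.965 of the range of the 4, and 1 of 42 sets examined stood out in this way, where chance gives about 1 in 20. In that library 16 nuclei were positive for Slc18a2, and the richest alone held 47 UFIs, of 426 over all nuclei of the 7 libraries.

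The effect of the primer on Slc17a6 differed between frozen and fresh brain, with an interaction of -0.73 on the log2 scale in all nuclei (edgeR adjusted p = 0.000191) and of -0.54 in neuron-like nuclei (edgeR adjusted p = 0.00446). For Slc32a1 in neuron-like nuclei the interaction was 0.49 (edgeR adjusted p = 0.0291), in the opposite direction. All 3 values rest on the single fresh preindexed library. In all nuclei interactions were called no more often among the members than among all genes.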

How the results depend on the processing

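The primer calls of Slc17a7, Slc17a6, Slc32a1 and Slc6a5 held in 12 of 12 alternatives in all nuclei and in neuron-like nuclei, and the differences in class shares kept their direction in 72 of 72 alternative values. By storage no member was called in the main fits, but some were in alternatives. Of 12 in all nuclei, Slc17a7 was called in 3, Slc6a5 in 2, and Slc17a6 and Slc17a8 in 1 each. Of 12 in neuron-like nuclei, Slc17a7 was called in 4, Slc6a5 in 2, and Slc17a6 and Slc18a2 in 1 each. Genes called by storage in all nuclei numbered 40, against 318 in DESeq2, 1937 without a filter on low counts, 5 with the replicate block and 4 to 840 when 1 library was left out. In neuron-like nuclei they numbered 99, against 188, 795, 37 and 23 to 983. By primer in all nuclei 3041 were called, against 4787 without a filter, 1731 with the replicate block and 1009 to 5668 with 1 library left out, and in neuron-like nuclei 3805, against 4579 without a filter, 3928 with RLE factors and 2438 to 3873 with 1 library left out. Among counts with 1 library left out, the highest, 840, 983, 5668 and 3873, came without the fresh preindexed library, which also leaves no fresh preindexed group. The cause was not tested. By primer 1521 genes were higher and 1520 lower in all nuclei and 2034 and 1771 in neuron-like nuclei, against 1913 and 1158, and 1892 and 1077, in DESeq2. Same-numbered libraries did not deviate together (r = -0.00941, 0.0394 and -0.0411 over 19380 genes), so the numbers were not taken as pairs.

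The ratio of nuclei with a glutamate transporter and a GABA gene was 0.272 with at least 2 UFIs of a single gene in each class. It was 0.306 after thinning, and both lay below the ratio given in the Results for all UFIs. Reversed fold changes were all of members not called. By storage in all nuclei Gad1 was -0.0014 in DESeq2, -0.0014 with RLE factors, -0.021 without a filter and -0.026 with the replicate block, and Th was -0.10 with the block and -0.094 without kidney- and liver-marked nuclei. By primer Gad2 was 0.0018 without a filter and 0.10 without those nuclei. Leaving out 1 library gave by storage in all nuclei -0.039 to 0.12 for Slc32a1, -0.12 to 0.11 for Gad1, -0.21 to 0.79 for Slc18a2 and -0.19 to 0.25 for Th, and by primer -0.10 to 0.13 for Gad1 and -0.12 to 0.070 for Gad2. In neuron-like nuclei it gave by storage -0.62 to 0.13 for Slc17a8, -0.041 to 0.23 for Slc32a1, -0.021 to 0.15 for Gad1 and -0.049 to 0.99 for Slc18a2, and by primer -0.0053 to 0.17 for Gad2. Depth limits the rare members, whose absence from a nucleus was not detectable.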
